A study of Homo sapiens with 6 samples.

Results

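The SLC25 carriers and the uncoupling proteins UCP1, UCP2 and UCP3 were examined in LNCaP cells exposed to urolithin A. They were taken by name alone, as every gene whose single symbol in the platform annotation starts with SLC25A or is one of the 3 UCP symbols, which gave 49 of the 18239 genes measured. LNCaP is an established human cell line of prostate adenocarcinoma, and urolithin A is a product that gut bacteria form from plant ellagitannins. Both groups were this single line in F12 medium with fetal bovine serum, and no genetic change was applied to either. One group, 3 arrays, received 40 µM urolithin A for 24 h. The other, also 3 arrays, is called untreated in the sample titles and saline-treated in the treatment protocol, and the solvent of urolithin A is not given. Total RNA was read on Affymetrix Human Genome U219 arrays. The question was which transcripts differ between the groups.

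Proteins of the SLC25 family sit mostly in the inner membrane of mitochondria, which few charged molecules cross without a transport protein. Each carries particular nucleotides, organic acids, amino acids, coenzymes or ions between the cytosol and the matrix, usually as an exchange. The uncoupling protein UCP1 lets protons back in without making ATP. In the prostate, secretory epithelium is known for making and releasing large amounts of citrate, which leaves mitochondria on a carrier of this family.

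Each value is a log2 value from which the authors' table has the median of the 3 control arrays already subtracted. Differences between arrays can therefore be read, while the level of a carrier, or whether it is expressed at all, cannot. A gene's value on an array is the mean of its probe sets, and 36 of the 49 genes had more than 1. A gene was called changed at an adjusted p under 0.05 in limma's moderated test, adjusted over all 18239 genes. RNA from bulk cells cannot tell fewer cells of a kind from less RNA per cell. No label tells whether replicate arrays stem from separate cultures. The p-values thus set the difference between the groups against the spread of arrays within them, and that spread may be technical.

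Some arrays stood apart in transcripts of immune and blood cells. HLA-DRA lay at 3.09 in urolithin A replicate 3, at 1.17 in urolithin A replicate 2 and at 1.01 in control replicate 1, against -0.02 to 0.03 in the other 3 arrays, and HBB at 2.32 in urolithin A replicate 3 against -0.09 to 0.16 elsewhere. Of the 4 measured immune markers fixed for this work, none passed limma's test and 1 of the 4 had groups that did not overlap, as had 29.3% of all genes. Their median per array was -0.03 to 0.09 in controls and 0.06 to 0.17 after urolithin A. TFF1, an epithelial gene, stood at 4.39 and 3.14 in urolithin A replicates 1 and 2 and at -0.29 in replicate 3. The part of these RNAs in the results below was not tested, beyond the fits without the arrays concerned. The markers of prostate epithelium could not be checked as levels. Of the 7 measured, 3 fell, or 42.9%, where 5.31% of all genes fell. They were the androgen-regulated KLK2 (4.19-fold), TMPRSS2 (3.94-fold) and KLK3 (1.97-fold), and the list's median was -0.53. The other 4 missed the threshold, with ACP3 at -0.53, KRT18 at -0.07, KRT8 at 0.13 and EPCAM at 0.20, and of these EPCAM alone had groups that did not overlap.

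Of the 49 carrier genes, 4 fell and 2 rose after urolithin A, and 43 did not pass. Those that fell were SLC25A15, which carries ornithine, SLC25A32, which carries folate, SLC25A33, which carries pyrimidine nucleotides, and SLC25A40, which carries glutathione. Those that rose were SLC25A29, which carries basic amino acids, and SLC25A23, a carrier of ATP-Mg and phosphate that calcium regulates. The called changes were small, from 1.24-fold to 1.48-fold.

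The 6 calls make up 12.2% of the carriers, while 10.2% of all genes were called by the same limma rule, so the share is near the background. Risen carriers were 4.08% against 4.85% of all genes, and fallen ones 8.16% against 5.31%. The median log2 change was -0.01 over the carriers and 0.01 over all genes. For 16 carriers, or 32.7%, the urolithin A arrays lay wholly above or below the controls, 5 above and 11 below, and this was so for 29.3% of all genes. As many as 34 carriers had a log2 change within 0.2 of zero. Without control replicate 1 and urolithin A replicate 3, 2 of the arrays with raised HLA-DRA, limma called 3 falls (SLC25A32, SLC25A40 and SLC25A12) and no rise among the carriers, with 4 rises at an unadjusted p under 0.05. Calls over all genes were also fewer in that fit, 705 or 3.87% in place of 1854. When urolithin A replicate 1 was set against control replicates 2 and 3 it called none, with 6 falls and 2 rises at an unadjusted p under 0.05, and there the lone treated array is assumed to vary like the controls. That fit called 48 of all genes, or 0.263%. With all arrays, 15 of the 49 carriers and 4393 of the 18239 genes, or 24.1%, had an unadjusted p under 0.05, and 27 carriers and 46.9% of all genes had a negative change.

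**Figure D1:**
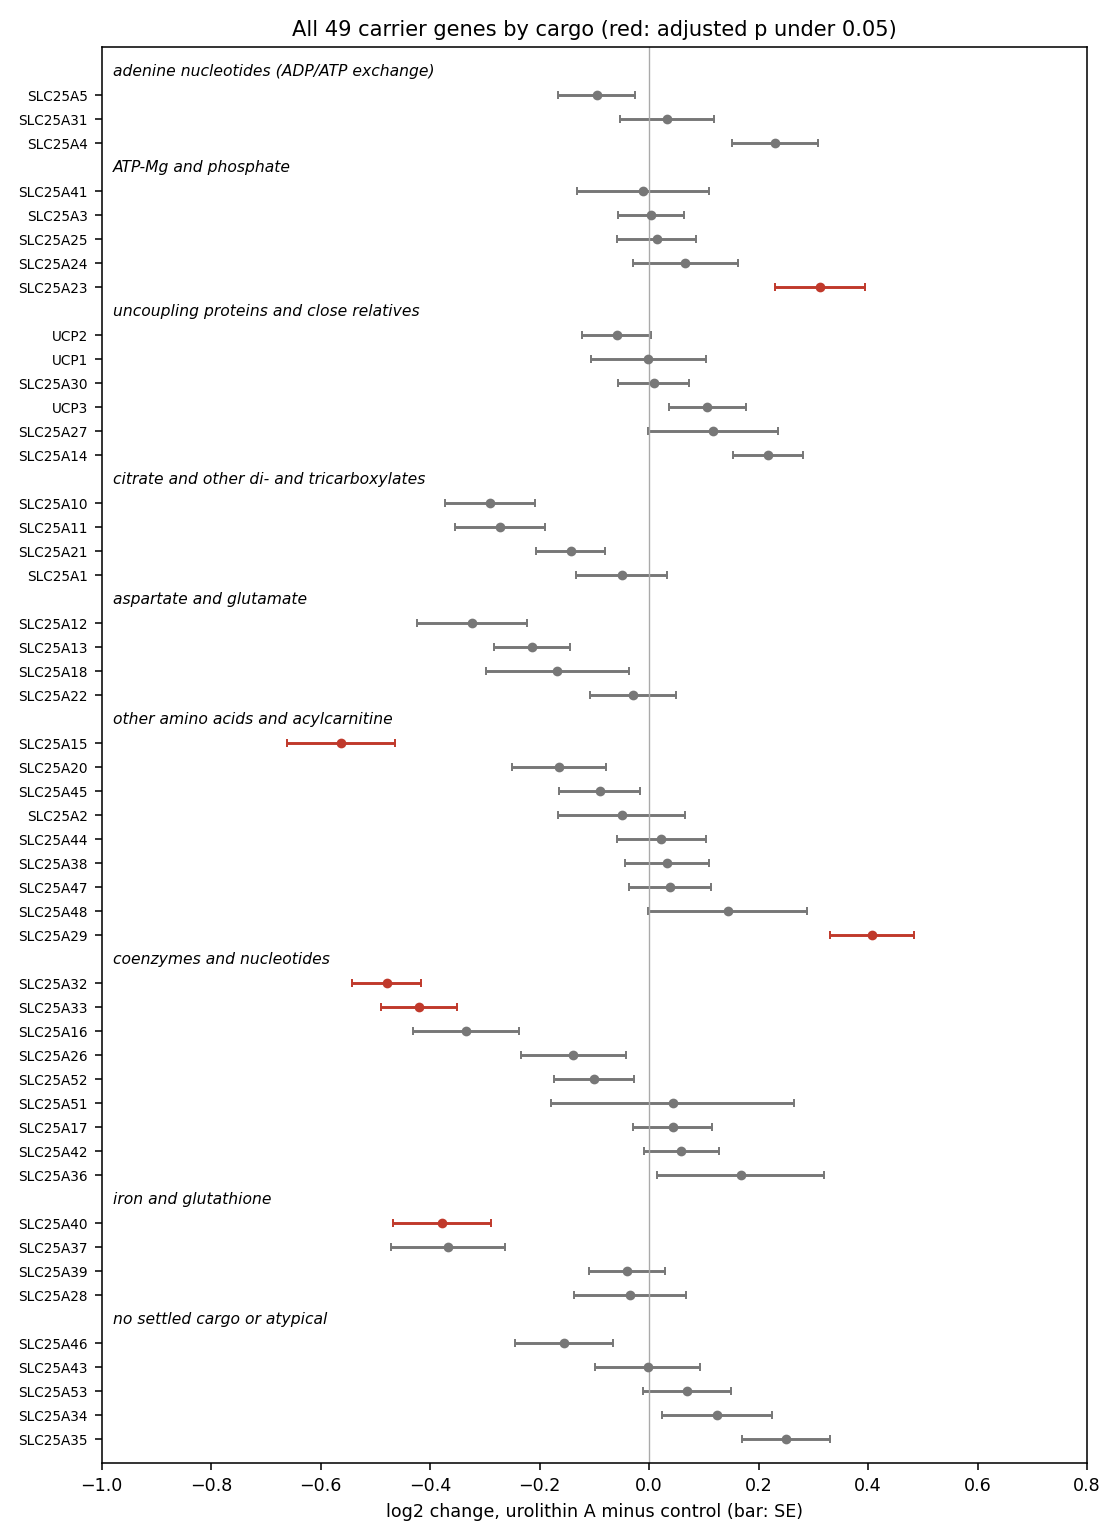
Log2 change after urolithin A (horizontal axis, urolithin A minus control, bars are the SE from limma) of the 49 carrier genes, grouped by the role assigned to each for this work, with 3 arrays in each group. Red points passed an adjusted p of 0.05: SLC25A15, SLC25A32, SLC25A33 and SLC25A40 lie to the left of zero, SLC25A29 and SLC25A23 to the right, and the other 43 are grey.

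SLC25A15 brings ornithine into the matrix in exchange for citrulline, a step of the urea cycle, and had the largest change of the family. Its control values, in the order of the replicate numbers as everywhere below, were -0.02, -0.09 and 0.02, and those with urolithin A were -0.39, -0.78 and -0.61. All arrays with urolithin A were below all controls, and they were spread more widely than the controls. It fell 1.48-fold (log2 change -0.56, SE 0.10, adjusted p = 0.0102 in limma). Of its 3 probe sets, 2 fell when tested alone, with log2 changes of -0.89 and -0.57, and the third was at -0.23. All 3 are of a kind marked as shared, and whether they also detect other genes was not examined. Its call was kept in each fit without a single array. It ended without control replicate 1 and urolithin A replicate 3 together, at a log2 change of -0.55 (adjusted p = 0.0861). The related ornithine carrier SLC25A2, with a single probe set, had a log2 change of -0.05 and overlapping groups.

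SLC25A29 carries arginine, lysine and other basic amino acids, and had the largest rise. The control arrays stood at -0.07, 0.00 and 0.15, and the arrays with urolithin A at 0.40, 0.42 and 0.48. The groups did not overlap, and the treated arrays lay closer together than the controls. This was a 1.33-fold rise (log2 change 0.41, SE 0.08, adjusted p = 0.0132 in limma), and both probe sets rose when tested alone. The call ended without control replicate 2 (log2 change 0.39, adjusted p = 0.0507) and without control replicate 1 and urolithin A replicate 3 (0.33, adjusted p = 0.11).

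SLC25A32 brings folate, and by other accounts FAD, into mitochondria. Control values were 0.03, 0.00 and -0.06, and urolithin A values -0.46, -0.50 and -0.51. The distance between the groups was several times the spread within either. The fall was 1.39-fold (log2 change -0.48, SE 0.06, adjusted p = 0.0028 in limma), the smallest p among the carriers. Of its 2 probe sets, 1 fell alone at -0.61 and the other had a change of -0.35 that did not pass. The call held without each single array and without control replicate 1 and urolithin A replicate 3.

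SLC25A33 carries pyrimidine nucleotides used for mitochondrial DNA and RNA. It has 1 probe set, with control values of 0.00, -0.06 and 0.09 and urolithin A values of -0.47, -0.35 and -0.41. That probe set is of a kind marked as shared, and whether it also detects other genes was not examined. Again no treated array reached the range of the controls. It fell 1.34-fold (log2 change -0.42, SE 0.07, adjusted p = 0.00767 in limma), a call that ended without control replicate 1 and urolithin A replicate 3 (log2 change -0.43, adjusted p = 0.0674). Its close relative SLC25A36, which carries the same class of nucleotides, had a log2 change of 0.17 and overlapping groups, with urolithin A replicate 3 high at 0.56. The difference between these 2 genes was not tested.

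SLC25A40 and its relative SLC25A39 bring glutathione, the main thiol antioxidant, into mitochondria. SLC25A40 stood at -0.24, 0.00 and 0.04 in the controls and at -0.53, -0.38 and -0.42 after urolithin A. Control replicate 1 was low, yet still above every treated array. It fell 1.30-fold (log2 change -0.38, SE 0.09, adjusted p = 0.032 in limma). The 2 probe sets disagreed, with log2 changes of -0.76 (SE 0.15, adjusted p = 0.0156) and 0.00 (SE 0.09), so the gene's value averages a fall and a value near zero. Leaving out any one array except control replicate 1 also ended its call, at adjusted p of 0.0619 to 0.107. SLC25A39 had a log2 change of -0.04 and overlapping groups.

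SLC25A23 is a calcium-sensitive carrier that exchanges ATP-Mg for phosphate. Its control values were 0.00, -0.05 and 0.18, and its urolithin A values 0.28, 0.36 and 0.43. Control replicate 3 came within 0.1 of the lowest treated array, but the groups did not overlap. The rise was 1.24-fold (log2 change 0.31, SE 0.08, adjusted p = 0.0476 in limma). None of its 3 probe sets passed alone, although each was positive, at 0.26 to 0.39. Leaving out any one array except control replicate 3 ended its call, at adjusted p of 0.0691 to 0.148. It was the one gene of 5 measured in the ATP-Mg and phosphate branch to pass, while 10.2% of all genes passed.

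**Figure D2:**
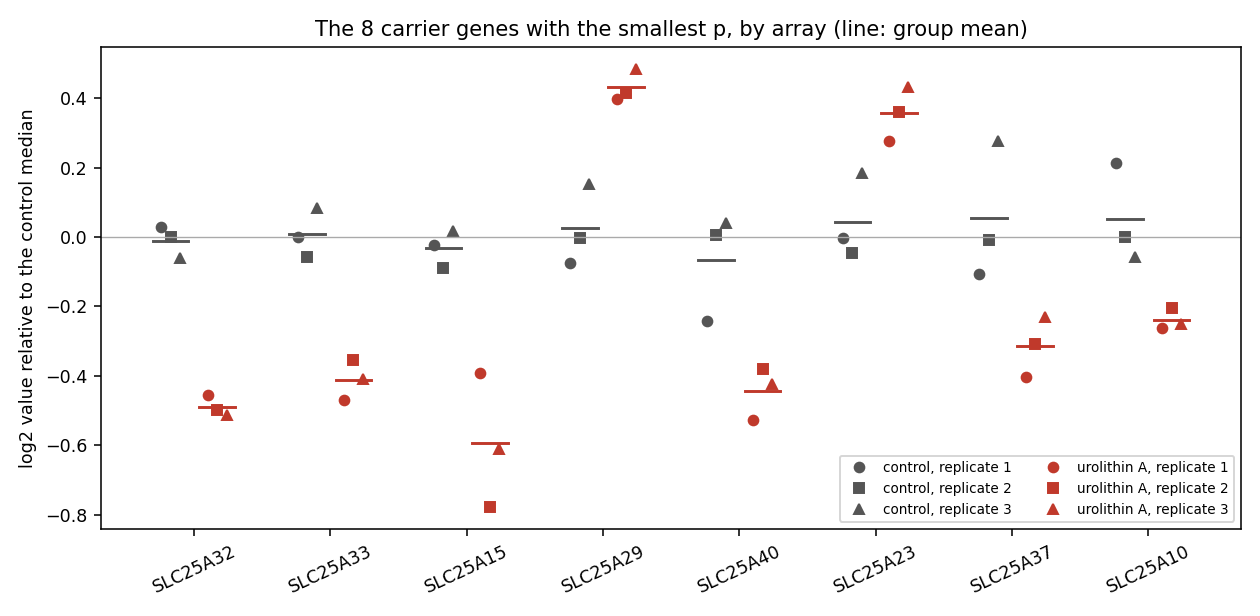
Values of the 8 carrier genes with the smallest p on each array (vertical axis, log2 relative to the control median; grey for control, red for urolithin A, a symbol for each replicate number, a line at each group mean, 3 arrays in each group). In each of the 8 genes the groups do not overlap, and the first 6 genes from the left passed an adjusted p of 0.05.

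The stretches in front of 3 of these genes are shown. They belong to the largest fall, the largest rise and the only searched called carrier with a match to a motif. They are the 250 bases before the annotated transcription start, 5′ to 3′ on the gene's strand, from RefSeq on GRCh38.p14. That build belongs to the sequence table, since the sources used here name none for the arrays. The positions are chr13:40789361-40789610, plus strand for SLC25A15, chr14:100306445-100306694, minus strand for SLC25A29 and chr1:9539215-9539464, plus strand for SLC25A33. Capitals mark a match to CACGTG, the E-box that MYC and related factors bind.
SLC25A15: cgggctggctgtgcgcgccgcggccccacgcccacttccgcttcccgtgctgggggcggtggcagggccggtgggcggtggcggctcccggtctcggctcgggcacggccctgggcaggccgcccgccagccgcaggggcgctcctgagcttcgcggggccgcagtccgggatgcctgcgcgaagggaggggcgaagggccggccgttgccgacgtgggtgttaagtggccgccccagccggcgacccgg
SLC25A29: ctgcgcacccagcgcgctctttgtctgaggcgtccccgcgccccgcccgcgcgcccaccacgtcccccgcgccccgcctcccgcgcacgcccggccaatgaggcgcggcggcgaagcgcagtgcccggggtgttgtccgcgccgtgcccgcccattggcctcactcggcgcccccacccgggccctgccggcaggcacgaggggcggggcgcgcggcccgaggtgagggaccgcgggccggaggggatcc
SLC25A33: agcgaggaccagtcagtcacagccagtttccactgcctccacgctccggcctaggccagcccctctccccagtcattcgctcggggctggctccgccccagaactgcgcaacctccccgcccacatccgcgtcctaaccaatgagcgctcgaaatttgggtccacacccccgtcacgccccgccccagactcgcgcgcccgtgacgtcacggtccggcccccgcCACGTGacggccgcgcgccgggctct
All 3 were rich in G and C, at 79.6% for SLC25A15, 81.2% for SLC25A29 and 70.4% for SLC25A33.

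Such stretches were at hand for 42 of the 49 carriers, 53 stretches in all, since some genes have several starts. On either strand, CACGTG was in 8 of the 53, or 15.1%, and in 6.34% of all 35116 stretches of that length. The ETS motif CCGGAAG, which the mitochondrial regulator GABP binds, was in 11, or 20.8%, against 8.52% of all. The NRF1 core GCATGCGC was in none of the 53 and in 2.63% of all. Of the 5 called carriers with a stretch, 1 held the E-box, SLC25A33, and none held either of the others. For SLC25A32 no stretch was at hand, so it was not searched. No motif of the 3 contains another, and a match describes the sequence only.

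The other iron and glutathione carriers include SLC25A37 (mitoferrin-1) and SLC25A28 (mitoferrin-2), which bring iron in for heme and iron-sulphur clusters. SLC25A37 stood at -0.11, -0.01 and 0.28 in the controls and at -0.40, -0.31 and -0.23 with urolithin A. Its groups did not overlap, but it did not pass (log2 change -0.37, SE 0.10, adjusted p = 0.061 in limma). Its 5 probe sets fell into a low set and a set near zero: 3 fell when tested alone, at -0.62, -0.57 and -0.46, and the others were at -0.13 and -0.05. With the median of the probe sets in place of the mean it passed (log2 change -0.37, adjusted p = 0.0381). Without probe sets marked as shared, cross-matching or common to several transcripts it was at -0.05 (SE 0.17, adjusted p = 0.928 in limma). That value rests on a single probe set, with control arrays from -0.24 to 0.50. The 3 that fell are marked as common to several transcripts. SLC25A28, with 1 probe set, had a log2 change of -0.03, and its groups overlapped.

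Of the 4 carriers of di- and tricarboxylates none passed in limma. All 4 had negative log2 changes, as had 46.9% of all genes, and 2 had an unadjusted p under 0.05, as had 24.1% of all genes. SLC25A10, the dicarboxylate carrier, which exchanges malate or succinate for phosphate, stood at 0.21, 0.00 and -0.06 in the controls and at -0.26, -0.20 and -0.25 with urolithin A. Its treated arrays were all lower than its controls and close to each other (log2 change -0.29, SE 0.08, adjusted p = 0.0613). SLC25A11, which exchanges 2-oxoglutarate for malate, was at -0.27 on the log2 scale (SE 0.08, adjusted p = 0.0772), with groups that did not overlap. The oxodicarboxylate carrier SLC25A21 was at -0.14, also without overlap, as the mean of probe sets from -0.36 to 0.12. SLC25A1, the citrate carrier, showed a difference of -0.05 in log2 (SE 0.08, adjusted p = 0.782), with control replicate 1 highest at 0.19 and the other 5 arrays between -0.07 and 0.01.

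Of the 4 aspartate and glutamate carriers none passed in limma. Their counts were the same, 4 negative and 2 at an unadjusted p under 0.05, to be read beside the same shares of all genes. SLC25A12 and SLC25A13 (citrin) exchange aspartate for glutamate in the malate-aspartate shuttle. SLC25A12 stood at -0.03, 0.10 and 0.01 in the controls and at -0.45, -0.37 and -0.08 with urolithin A. Urolithin A replicate 3 was nearest to the controls, and without it SLC25A12 passed (log2 change -0.43, adjusted p = 0.0195), against adjusted p = 0.081 for a log2 change of -0.32 with all arrays. Its 3 probe sets differed, at -0.70 (adjusted p = 0.0169), -0.30 and 0.03. For SLC25A13 the log2 change was -0.21 (SE 0.07, adjusted p = 0.0952), without overlap. The glutamate carriers SLC25A18 and SLC25A22 had log2 changes of -0.17 and -0.03 and overlapping groups.

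The ADP/ATP carriers, which send ATP out to the cytosol, did not pass in any of 3 measured genes in limma. Of the 3, 1 had an unadjusted p under 0.05, as had 24.1% of all genes. SLC25A4, the form typical of heart and muscle, stood 0.23 higher in log2 (SE 0.08, adjusted p = 0.115), with controls at 0.19, -0.07 and 0.05 and urolithin A arrays at 0.24, 0.31 and 0.30. Its groups stood apart by little, as control replicate 1 lay close to the lowest treated array. SLC25A5, the form typical of growing cells, was at -0.10 and the germ-cell form SLC25A31 at 0.03, both with overlap. SLC25A6 is not analysed here. SLC25A3, which brings in the phosphate for ATP synthesis, was at 0.00 (SE 0.06), and all 6 of its arrays lay between -0.02 and 0.03. The relatives of SLC25A23, namely SLC25A24, SLC25A25 and SLC25A41, had log2 changes of 0.07, 0.01 and -0.01.

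Uncoupling proteins did not pass: UCP1, which makes heat in brown fat, had a log2 change of 0.00, UCP2 of -0.06 and UCP3 of 0.11, and all 3 had overlapping groups. None of the 6 genes of this branch passed in limma, and 1 had an unadjusted p under 0.05, as had 24.1% of all genes. That one was SLC25A14, also called UCP5, with controls at -0.05, 0.03 and 0.02 and urolithin A arrays at 0.17, 0.25 and 0.23. The groups were clear of each other, and the log2 change of 0.22 (SE 0.06) did not pass (adjusted p = 0.0709). Of its 3 probe sets, 2 rose when tested alone, at 0.35 and 0.33, and the third stood at -0.03. As the median of its probe sets SLC25A14 passed (log2 change 0.31, adjusted p = 0.0242). SLC25A27, also called UCP4, and SLC25A30 had log2 changes of 0.12 and 0.01 and overlapped.

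Beside SLC25A32 and SLC25A33, the carriers of coenzymes and nucleotides comprise 7 genes that did not pass. SLC25A16, linked to coenzyme A, stood lower by a log2 change of -0.33 (SE 0.10, adjusted p = 0.0671), with urolithin A replicate 3 lowest at -0.58 and no overlap. SLC25A42, which carries coenzyme A, was at 0.06, SLC25A26, which carries S-adenosylmethionine, at -0.14, and SLC25A17 of peroxisomes at 0.04. The value of SLC25A26 averages a probe set at -0.43 (adjusted p = 0.0817 in limma) and another at 0.16. The NAD carrier SLC25A51 had a log2 change of 0.04 with a wide SE of 0.22, because urolithin A replicate 3 lay at -0.63 and control replicate 3 at -0.38. Its near copy SLC25A52 was at -0.10, and the single probe set of each is of a kind marked as open to cross-hybridization, so the 2 cannot be told apart with certainty.

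Of the other amino acid and acylcarnitine carriers, SLC25A20, which exchanges acylcarnitine for carnitine in fatty acid oxidation, had a log2 change of -0.16 (adjusted p = 0.293). SLC25A38, which brings in glycine for heme, stood at 0.03 and SLC25A44, which carries branched-chain amino acids, at 0.02. SLC25A45, SLC25A47 and SLC25A48 were placed in this group for this work, and their cargo was not examined. They had log2 changes of -0.09, 0.04 and 0.14, and urolithin A replicate 3 was highest in SLC25A48, at 0.52. All 6 of these genes had overlapping groups. Among the carriers with no settled cargo or an unusual site, SLC25A35 was at 0.25 on the log2 scale (SE 0.08, adjusted p = 0.0937), without overlap. Of its 4 probe sets, 1 stood at 0.69 (adjusted p = 0.0504) and the others between -0.04 and 0.26. SLC25A46, which lies in the outer membrane and acts in mitochondrial fission, was at -0.16, SLC25A34 at 0.12, SLC25A53 at 0.07 and SLC25A43 at 0.00.

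Probe sets of a carrier often differed. Tested one by one among all 45253 probe sets with a single symbol, 13 of the 124 carrier probe sets passed in limma, 4 higher and 9 lower. That is 10.5%, beside 8.51% of all such probe sets. They belonged to 8 genes, which were SLC25A12, SLC25A14 and SLC25A37 in addition to the called genes other than SLC25A23. No carrier had probe sets that passed in opposite directions. Which transcript forms the probe sets detect was not examined.

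**Figure D3:**
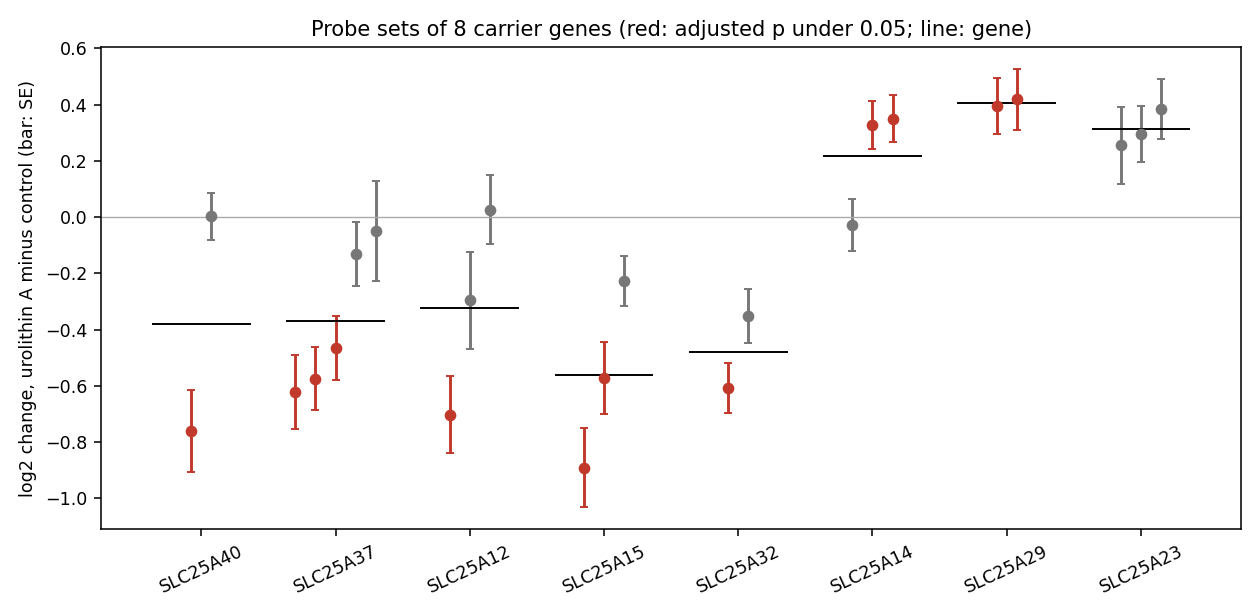
Log2 change of each probe set (points, bars are the SE from limma; red passed an adjusted p of 0.05 over all probe sets) of 8 carrier genes, with a line at the gene's value, which is their mean. SLC25A40 joins a probe set at -0.76 with one at 0.00, whereas both probe sets of SLC25A29 lie close to 0.41.

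Carriers reach the inner membrane through the TOM pore, small TIM chaperones and the TIM22 complex, and 4 of 15 measured genes of this route fell. The median log2 change was -0.18, and 11 genes missed the threshold. TIMM8A, a small chaperone of the intermembrane space, stood at 0.02, 0.02 and -0.20 in the controls and at -0.71, -0.78 and -1.22 with urolithin A. It fell 1.80-fold (log2 change -0.85, SE 0.13, adjusted p = 0.00622 in limma), while 1 of its 2 probe sets passed alone. The chaperones TIMM10 and TIMM10B fell 1.40-fold and 1.38-fold, and TOMM5, a small subunit of the TOM pore, 1.30-fold. These 4 calls held without each single array. Of the 4, TIMM8A alone was also called without control replicate 1 and urolithin A replicate 3, where the others had adjusted p of 0.0591 to 0.0959 in a fit that called 705 genes in all. When urolithin A replicate 1 was set against control replicates 2 and 3, no gene of this or the next 3 lists was called.

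Other transporters of mitochondria gave 3 falls and 1 rise among 16 measured genes. The other 12 missed the threshold, and the list's median was -0.02. MPC2, a subunit of the pyruvate carrier, stood at 0.00, -0.06 and 0.13 in the controls and at -0.83, -0.70 and -0.85 with urolithin A. It fell 1.76-fold (log2 change -0.81, SE 0.08, adjusted p = 0.000772 in limma), with all 4 probe sets passing. MICU2, a regulator of the calcium uniporter, rose 1.43-fold. SFXN1, a serine transporter, fell 1.29-fold, a call that ended when control replicate 2 or 3 was left out, at adjusted p of 0.0588 and 0.0533. SFXN5 fell 1.24-fold, and its call ended without any one of the 6 arrays, at adjusted p of 0.0643 to 0.117. The list had 2 calls in place of 4 without control replicate 2, without control replicate 3, and without control replicate 1 and urolithin A replicate 3 together. Calls over all genes were then 1063, 1231 and 705 in place of 1854.

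Enzymes that act on what the carriers move gave 7 falls and 2 rises among 22 measured, the other 13 missing the threshold. Their median was -0.15 on the log2 scale. GLUD1, which turns glutamate into 2-oxoglutarate in the matrix, stood at -0.01, -0.02 and 0.13 in the controls and at -0.73, -0.77 and -0.91 with urolithin A. It fell 1.79-fold (log2 change -0.84, SE 0.08, adjusted p = 0.000705 in limma), and all 3 probe sets passed. ASL, an enzyme of the urea cycle, fell 1.51-fold, with 4 of 5 probe sets passing. Without probe sets marked as shared, cross-matching or common to several transcripts, the value of ASL was 0.08 (adjusted p = 0.822). GSR, which reduces glutathione, fell 1.29-fold, and by that filter was at -0.17 (adjusted p = 0.389), and CRAT, a carnitine acetyltransferase, rose 1.33-fold. Under that filter the list had 0 calls, where 509 genes were called in all, and GLUD1 and CRAT had no probe set left. The count of 9 calls was 4 without control replicate 3 or without urolithin A replicate 1, and 5 without urolithin A replicate 2 or 3. Over all genes those fits called 1231, 1173, 1213 and 1309 in place of 1854. The count was 2 without control replicate 1 and urolithin A replicate 3 together, where all genes gave 705.

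Regulators of mitochondrial gene content and the enzymes that copy or read mitochondrial DNA gave 4 falls among 12 measured genes. The other 8 missed the threshold, and the median was -0.07. POLG, the catalytic subunit of the mitochondrial DNA polymerase, stood at -0.19, 0.06 and 0.00 in the controls and at -0.97, -0.60 and -0.69 with urolithin A, a fall of 1.63-fold (log2 change -0.71, SE 0.11, adjusted p = 0.00608 in limma). TFAM, which packs and transcribes mitochondrial DNA, fell 1.28-fold and PPRC1, a coactivator of the PGC-1 family, 1.32-fold. PPRC1 lost its call without control replicate 2 or 3 and without urolithin A replicate 2 or 3, at adjusted p of 0.0519 to 0.0757. TFB2M, a transcription factor of mitochondria, fell 1.20-fold and lost its call without any one of the 6 arrays, at adjusted p of 0.0598 to 0.0922. PPARGC1A, the PGC-1 alpha gene, was at -0.06 and missed the threshold. Without control replicate 2 or 3, or without urolithin A replicate 2 or 3, the list had 2 calls in place of 4, and all genes had 1063, 1231, 1213 and 1309. Without control replicate 1 and urolithin A replicate 3 together it had 1, and all genes 705. Shares passed were 26.7% for import, 25% for other transporters, 40.9% for enzymes and 33.3% for regulators, beside 10.2% of all genes. These differences were not tested. The lists were chosen with earlier results of these data known, so the shares cannot show that a class is enriched. Without probe sets marked as shared, cross-matching or common to several transcripts, the lists had 2, 3, 0 and 1 calls in this order, and all genes 509.

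**Figure D4:**
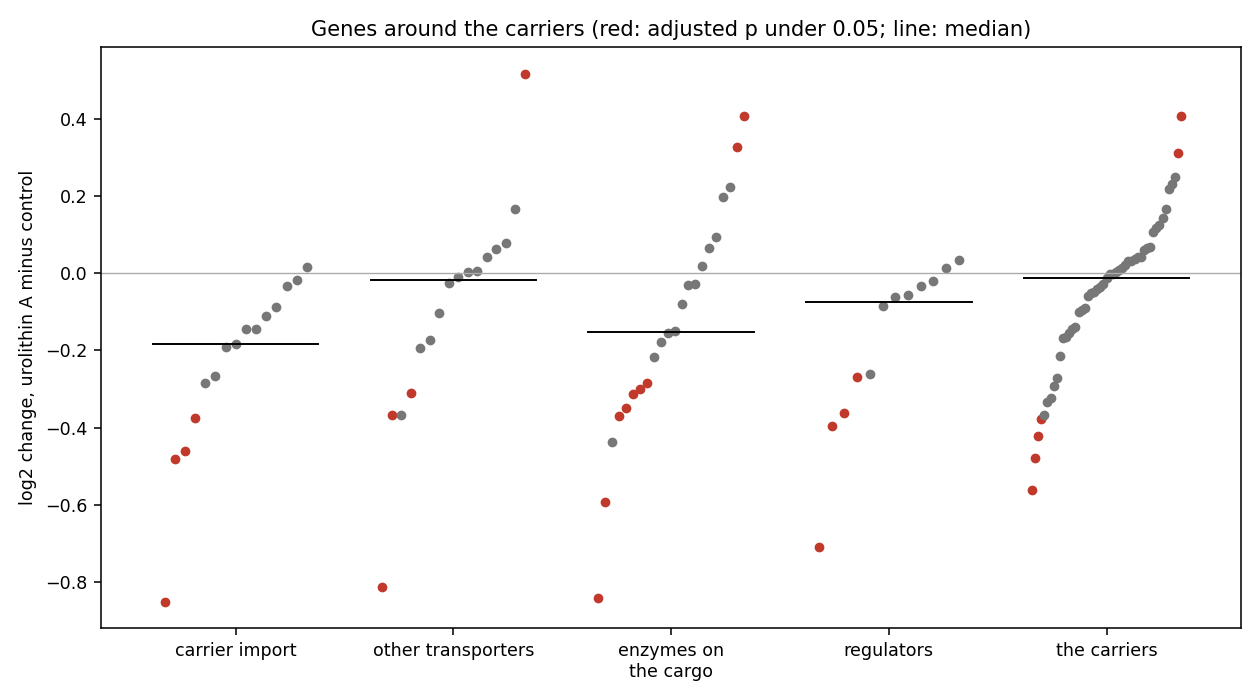
Log2 change after urolithin A (vertical axis, urolithin A minus control) of genes of carrier import, other mitochondrial transporters, enzymes on the cargo, regulators, and the 49 carriers, in order of size within each list, with a line at the median. Red points passed an adjusted p of 0.05; the medians are -0.18, -0.02, -0.15, -0.07 and -0.01, and the difference between lists was not tested.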

How the data were processed

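Gene expression of LNCaP cells was measured on 6 arrays, 3 control and 3 urolithin A, grouped by sample title. The deposited values are log2 signals for 49386 probe sets. The authors used RMA, a tool named without a version in the submitters' processing notes, which removes background, equalizes the arrays' distributions by quantiles and sums up the probes. The median of the 3 controls was 0 in all 49386 probe sets, so it had been subtracted. The log base was taken as 2 because RMA uses it. Probe sets with 1 gene symbol (45253, without 93 control probe sets) were averaged per gene, giving 18239 genes. The test was limma's (3.58.1, under R 4.3.3; lmFit and eBayes, treatment only, two-sided), with Benjamini-Hochberg adjustment over all genes and a threshold of 0.05. The fit was tested on simulated data. The number of arrays limits precision, and no batch was named. No genome build of the arrays is given in the sources used here.

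The carriers, their roles and the other lists were chosen with earlier results of these data known. Array values are given for carriers that passed or, as fewer than 8 passed, for the 8 with the smallest p, and up to 4 called genes per other list are named. Array values of SLC25A12, SLC25A14 and SLC25A4 were added after their values were seen. Alternatives were a replicate block, other gene values, probe set filters, centring, priors, weights, thresholds, a variance filter and leaving out arrays. Leaving out arrays high in HLA-DRA and scaling on 9 hybridization controls were added after the data were seen.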

Additional observations from a re-analysis of the deposited data

How the results depend on the processing

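With 3 arrays per group the fit could miss changes of the size seen in most carriers, and control-centred values hide signal near background. With all arrays and all probe sets, limma called 2 carriers higher, 4 lower and 1854 genes in all. No label says whether the replicate numbers pair the arrays. Same-numbered arrays had correlations of their deviations of 0.08, 0.02 and 0.20, and differently numbered ones of -0.14 to 0.07. Whether the numbers mark pairs was not tested. With the replicate number as a block the counts were 2, 5 and 1863, the added fall being SLC25A37 (adjusted p = 0.0292), and the call of TFB2M was lost (adjusted p = 0.0533). Each array left out in turn gave 0 to 2 higher, 3 to 4 lower and 1063 to 1309 genes. The 0 came without control replicate 2, with 4 higher at an unadjusted p under 0.05.

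Without probe sets marked as shared, cross-matching or common to several transcripts, limma called 1 higher, 0 lower (4 at an unadjusted p under 0.05) and 509 genes. Fewer genes and probe sets were tested in that fit. SLC25A15, SLC25A29, SLC25A32 and SLC25A33 had no probe set left there, SLC25A40 (adjusted p = 0.0605) and SLC25A23 (adjusted p = 0.128) missed the threshold, and the 1 higher was SLC25A35 (adjusted p = 0.0468). The change of ASL turned to 0.0816. Without moderation there were 0 higher (5 at an unadjusted p under 0.05), 2 lower and 560 genes, and at an adjusted p under 0.01 there were 0, 2 and 642. Median centring, a trended and robust prior and the variance filter each called 1 higher. Other settings kept or raised the counts. The median of the probe sets gave 3 higher, 5 lower and 1821 genes, and array weights 2, 4 and 1878. Counting a gene when any probe set passed alone gave 2, 6 and 2651. Without control replicate 1 and urolithin A replicate 3 there were 0 higher and 705 genes. Urolithin A replicate 1 against control replicates 2 and 3 gave 0, 0 and 48. Scaling on hybridization controls gave 0 (2 at an unadjusted p under 0.05), 1 and 646, with SLC25A15 the fall kept. There SLC25A32 was at -0.45 (SE 0.16) in place of -0.48 (SE 0.06). SLC25A29 was at 0.44 (SE 0.16) in place of 0.41 (SE 0.08). For all these changes the cause was not tested. None of the 8 carriers given in full by rule changed direction under any setting in which it had a value. They were taken by the smallest p and their groups did not overlap, so leaving out arrays could not turn their sign. Several settings, such as the priors and thresholds, leave the log2 change as it is. The kept direction is therefore no independent support. Among tracked genes that were not called, 78 values changed sign across settings.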
